A study of Homo sapiens with 12 samples.

Results

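The 38 genes described here drive cells through the division cycle: 10 serve DNA replication, 12 are cyclins, cyclin-dependent kinases (CDKs) or the CDC25 phosphatases that activate CDKs, and 16 act in mitosis. They form a list of names by known role. No cutoff on a measured value was used, but earlier results of these data were known. All 38 had a probe among the 20046 genes of the arrays, an Illumina HumanHT-12 design. A gene's level is the log2 normalized signal of 1 probe, the brightest of its probes on average, and a difference of 1 on this scale is 2-fold. A gene counts as detected on an array where its signal stood above the negative control beads (detection p-value under 0.01), and 35 of the 38 were detected on all 12 arrays. MKI67 was detected on 11 arrays, CDC6 on 10, and CCNE2, the second cyclin E gene, on none, so CCNE2 entered no comparison and 37 genes were tested.

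In a dividing cell the MCM helicase is loaded onto DNA by CDC6 and CDT1 in G1 phase, and cyclin E with CDK2 starts DNA synthesis. Cyclin B with CDK1 then drives mitosis, in which the Aurora and polo-like kinases and kinesin motors build the spindle. The spindle checkpoint keeps CDC20 from switching on the anaphase-promoting complex until the chromosomes are attached to the spindle. Pluripotent stem cells cycle fast, with a short G1 phase, and keep most of these genes active.

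The 12 samples were 2 of H9 human embryonic stem cells (hESC, labelled MEG3-OFF, replicates 1 and 2), 5 of MEG3-OFF NTU1 hESC (replicates 5 to 9, labelled as worse in neural differentiation), 1 embryoid body (EB, labelled MEG3-ON, derived from NTU1 by the study's supplement, its day not given by the labels) and 4 of MEG3-ON NTU1 hESC (replicates 1 to 4, labelled as better). NTU1 and H9 are each 1 hESC line, grown on mouse embryonic fibroblast feeders in a serum-free medium without any further treatment named, and the NTU1 sublines were sorted by quantitative PCR of MEG3, a noncoding RNA of the imprinted DLK1-DIO3 locus. The study took the NTU1 sublines for its comparison and H9 and the EB as references of a pluripotency test. All arrays lay on 1 chip with each group in adjoining positions, and passage numbers were not given, so neither chip position nor time in culture can be told apart from group. Nothing states that the replicates came from separate cultures beyond their name as sublines, and the p-values measure only the spread between these samples, which may be technical.

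MEG3 itself fitted the labels: it was detected on 0 of 2 H9 arrays and 1 of 5 MEG3-OFF arrays, in the EB and on 4 of 4 MEG3-ON arrays, with levels of 5.10 and 5.15 in H9, 4.97 to 6.30 in MEG3-OFF, 13.76 in the EB and 13.15 to 14.12 in MEG3-ON. Since the sublines were sorted on it, this is a check and no result. Between 16864 and 18796 probes were detected per array. The mean of 7 pluripotency genes was 12.10 to 12.11 in H9, 12.51 to 12.72 in MEG3-OFF, 9.90 in the EB and 12.46 to 12.58 in MEG3-ON, with all 7 detected on every hESC array. The mean of 8 fibroblast genes, which would mark feeder cells as far as their mouse RNA binds these human probes, was 7.64 to 7.73 in H9, 7.56 to 7.75 in MEG3-OFF, 9.02 in the EB and 7.59 to 7.86 in MEG3-ON.

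Taken as a whole the set stood at nearly the same height in all groups. Its mean over the 38 genes was 10.31 and 10.35 in H9, 10.25 to 10.37 in MEG3-OFF, 10.29 in the EB and 10.26 to 10.39 in MEG3-ON. The groups overlapped in this mean. The heat map of all members by array shows where single genes departed from it, in H9 and in the EB more than between the NTU1 sublines.

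**Figure D1:**
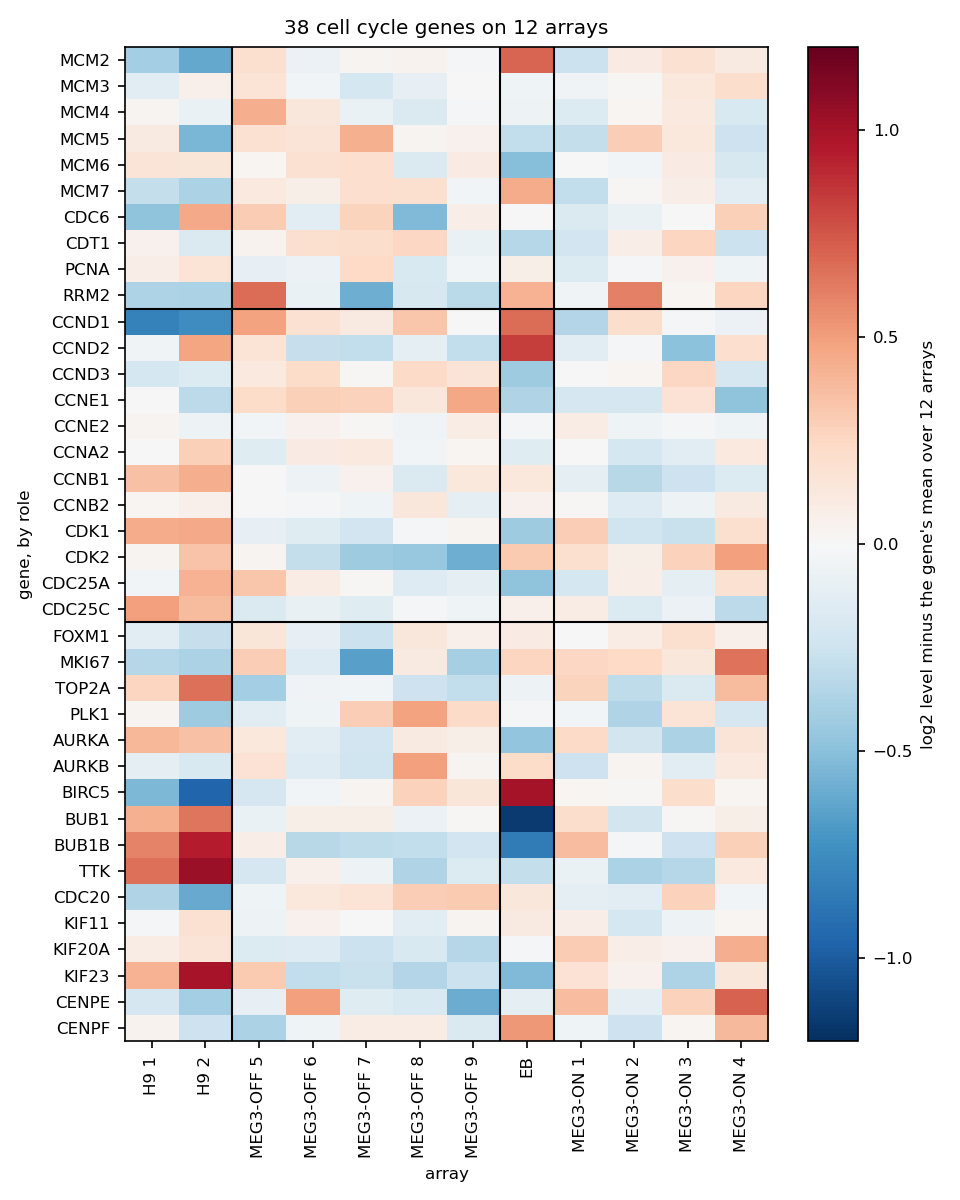
Heat map of the 38 genes (rows, in the order replication, cyclins and CDKs, mitosis, with lines between) on the 12 arrays (columns, with lines between groups), coloured by the log2 level minus the gene's own mean over 12 arrays. The strongest colours stand in the H9 and EB columns, while CCNE2, not detected on any array, stays near white throughout.

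The first comparison asked whether NTU1 sublines that have lost MEG3 differ in cell cycle transcripts from those that keep it. Of the 37 members, 1 passed the test (limma over the 9 NTU1 arrays with Benjamini-Hochberg adjustment over 10775 genes, threshold 0.05), or 2.7%, against 3.58% of all genes tested. That gene was CDK2, which was lower in MEG3-OFF cells (of all genes, 1.74% passed as lower and 1.85% as higher). With no adjustment, 5 members and 22.3% of all genes had a p under 0.05. The differences were positive for 21 members and negative for 16, with a median of 0.02 (0.02 for all genes as well), and 30 of 37 were under 0.3 in size. The 95% confidence interval of the difference lay within 2-fold in either direction for all 37 members and within 1.5-fold for 29. For 2 members, CDK2 and KIF20A, the levels of one group all lay below those of the other without overlap, as for 8.25% of all genes. In such bulk samples fewer cells in a phase of the cycle and less RNA per cell cannot be told apart.

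**Figure D2:**
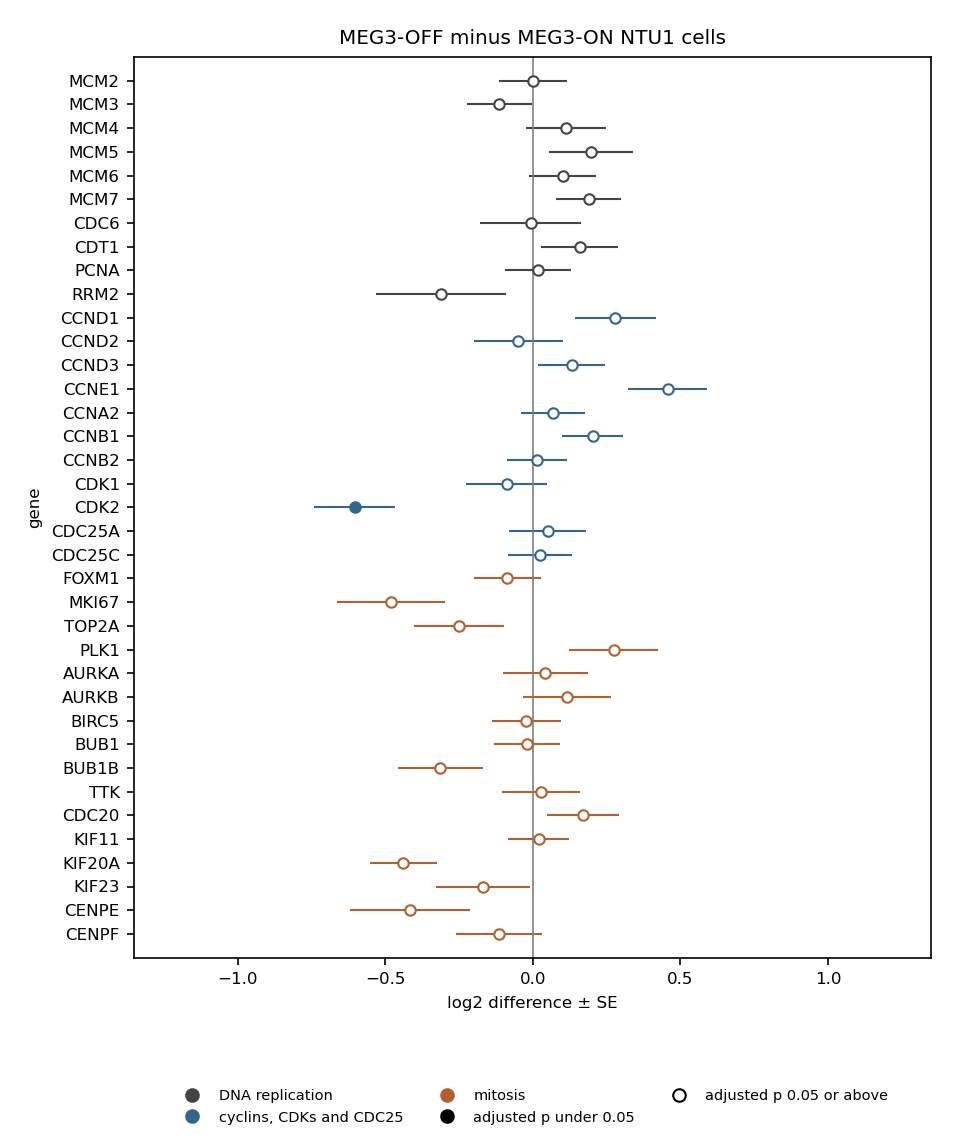
Log2 difference ± SE of each member between MEG3-OFF (5 arrays) and MEG3-ON (4 arrays) NTU1 cells, coloured by role, with filled points for an adjusted p under 0.05. CDK2 at -0.60 is the only filled point, and 30 of 37 members lie within 0.3 of 0.

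CDK2, the kinase that works with cyclins E and A in S phase, had levels of 9.40, 9.08, 8.95, 8.92 and 8.78 in MEG3-OFF replicates 5 to 9, against 9.56, 9.44, 9.65 and 9.87 in MEG3-ON replicates 1 to 4. Every MEG3-OFF array lay below every MEG3-ON array, although MEG3-OFF replicate 5 came close to the lowest of them. The difference was -0.60 ± 0.14 (SE), or 1.52-fold, with an adjusted p of 0.0322 from limma. The call was lost in 11 of 19 other settings, with adjusted p from 0.00717 to 0.117 over all of them. It was lost without MEG3-ON replicate 1 (0.0732), 3 (0.0560) or 4 (0.113) and without MEG3-OFF replicate 6 (0.0657), 7 (0.0707), 8 (0.0529) or 9 (0.0890). The other CDK2 probe, also detected on all arrays, differed by -0.16 ± 0.16 (adjusted p = 0.565 over all probes).

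KIF20A, a kinesin of the central spindle that is needed for cytokinesis, came next in its p. It had levels of 10.45, 10.47, 10.36, 10.44 and 10.28 in MEG3-OFF replicates 5 to 9, against 10.93, 10.70, 10.67 and 11.06 in MEG3-ON replicates 1 to 4. The groups did not overlap, and MEG3-ON replicates 1 and 4 were the highest. The difference of -0.44 ± 0.11 missed the threshold (limma, adjusted p = 0.0508) and passed it in 9 of 19 other settings, among them without MEG3-ON replicate 3 (0.0430) or MEG3-OFF replicate 5 (0.0385).

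CCNE1, the cyclin E gene detected on all arrays, leaned the other way. Its levels were 10.63, 10.70, 10.69, 10.55 and 10.87 in MEG3-OFF replicates 5 to 9, against 10.21, 10.21, 10.58 and 9.93 in MEG3-ON replicates 1 to 4. Only MEG3-ON replicate 3 reached into the MEG3-OFF range. The difference was 0.46 ± 0.13 (limma, adjusted p = 0.0732), past the threshold in 5 of 19 other settings, among them without MEG3-ON replicate 3 (0.0290), and the other CCNE1 probe gave 0.45 ± 0.14.

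MKI67, which encodes the proliferation marker Ki-67, was dim and gave 6.61, 6.16, 5.66, 6.42 and 5.91 in MEG3-OFF replicates 5 to 9, against 6.56, 6.55, 6.45 and 6.96 in MEG3-ON replicates 1 to 4. MEG3-OFF replicates 5 and 8 came near to or into the MEG3-ON range and the others lay below it. The difference was -0.48 ± 0.18 (limma, adjusted p = 0.152), past the threshold only without MEG3-OFF replicate 5 (0.0493) among 18 other settings. CENPE, a kinetochore motor that moves chromosomes to the spindle equator, had levels of 8.23, 8.82, 8.19, 8.15 and 7.74 in MEG3-OFF replicates 5 to 9 and 8.70, 8.22, 8.61 and 9.04 in MEG3-ON replicates 1 to 4. The groups overlapped widely, with MEG3-OFF replicate 6 among the highest arrays, and the difference was -0.42 ± 0.20 (adjusted p = 0.242).

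BUB1B, the spindle checkpoint protein BubR1, completed the 6 largest differences. Its levels were 8.92, 8.51, 8.54, 8.54 and 8.62 in MEG3-OFF replicates 5 to 9, against 9.21, 8.83, 8.60 and 9.13 in MEG3-ON replicates 1 to 4. MEG3-OFF replicate 5 stood above the other MEG3-OFF arrays, and it and replicate 9 lay within the MEG3-ON range. The difference was -0.31 ± 0.14 (limma, adjusted p = 0.221).

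By role, none of the 10 replication genes passed the test and none had an unadjusted p under 0.05 (0 also by the methods' t-test with the study's 1.5-fold limit). Their differences ran between -0.31, for RRM2, the small subunit of ribonucleotide reductase, and 0.20, for MCM5, with a median of 0.06. MCM2 and PCNA, the sliding clamp of DNA polymerases, were level between the groups (0.00 ± 0.12 and 0.02 ± 0.11). Of the 11 tested cyclins, CDKs and CDC25 genes, CDK2 passed and the median was 0.05. None of the 16 mitotic genes passed limma's test, 3 had an unadjusted p under 0.05 (KIF20A, MKI67 and BUB1B), none passed the methods' t-test with its fold limit, and their median was -0.05. FOXM1, a transcription factor that drives G2 and M phase genes, differed by -0.09 ± 0.11, and PLK1, the polo-like kinase of mitotic entry, by 0.27 ± 0.15.

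Among the MEG3-ON arrays, the mean of the 16 mitotic genes varied. It was 10.10 in replicate 1, 9.88 in replicate 2, 9.97 in replicate 3 and 10.19 in replicate 4, where the 5 MEG3-OFF arrays had 9.88 to 9.998. CDK1, the kinase of mitotic entry, was at 10.87 and 10.76 in replicates 1 and 4 and at 10.33 and 10.31 in replicates 2 and 3. TOP2A, the topoisomerase that untangles replicated chromosomes, was at 11.60 and 11.72 in replicates 1 and 4 and at 11.04 and 11.16 in replicates 2 and 3. This spread within MEG3-ON exceeded the distance of the group means for both genes.

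**Figure D3:**
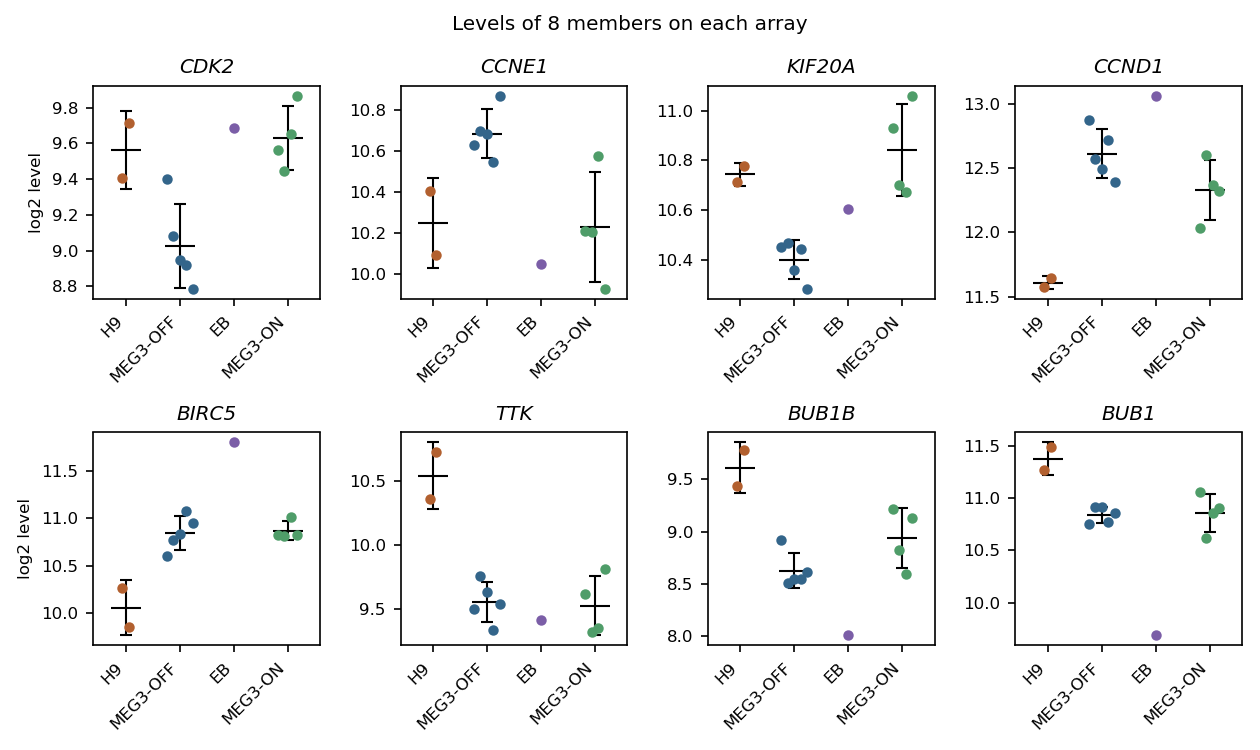
Log2 levels of 8 members on each array (points) in H9, MEG3-OFF, EB and MEG3-ON, with black lines for the mean and SD of the groups of more than 1 array; the axes do not start at 0 and differ between genes. CDK2 and KIF20A separate MEG3-OFF from MEG3-ON, TTK and BUB1B stand highest in H9, CCND1 and BIRC5 lowest in H9 and highest in the EB, and BUB1 lowest in the EB.

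The second comparison set H9 against MEG3-OFF NTU1 cells, both labelled MEG3-OFF, so hESC line and every other difference between the cultures cannot be told apart. It shares its MEG3-OFF arrays with the comparison above. Of the 37 members, 14 passed the test (limma on 11 hESC arrays in 3 groups), or 37.8%, against 31.4% of 11583 genes, so the share of members was near that of all genes. Of these, 9 were higher in H9 (13.2% of all genes were) and 5 lower (18.2%). The arrays did not overlap for 18 members, against 44.3% of all genes, and the median difference of the members was 0.00, beside -0.07 for all genes. Higher were CCNB1, CDK1, CDK2, CDC25C, TOP2A, BUB1, BUB1B, TTK and KIF23, and lower were MCM2, MCM7, CCND1, BIRC5 and CDC20. The mean of the 16 mitotic genes was 10.06 and 10.08 in H9, against 9.88 to 9.998 in MEG3-OFF. That of the 10 replication genes was 10.88 and 10.87 in H9, against 10.92 to 11.21 in MEG3-OFF. For both means the H9 arrays lay within the MEG3-ON range, 9.88 to 10.19 for mitosis and 10.84 to 11.11 for replication.

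The H9 result leaned on replicate 2. Without it 1 member passed, CCND1, and 4.78% of all genes; without H9 replicate 1 there were 11. The raw median signal was 83.6 and 93.5 in the H9 arrays and 89.3 to 104 in MEG3-OFF, and its part in the result was not tested. Of 7 pluripotency genes 2 passed as lower in H9, among them NANOG, which stood at 7.94 and 7.601 in H9 against 10.51 to 11.04 in MEG3-OFF. The fibroblast means overlapped, with 4 of 8 detected in H9 and 4 or 5 in MEG3-OFF, and COL3A1, POSTN and DCN were detected on none of these 7 arrays.

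**Figure D4:**
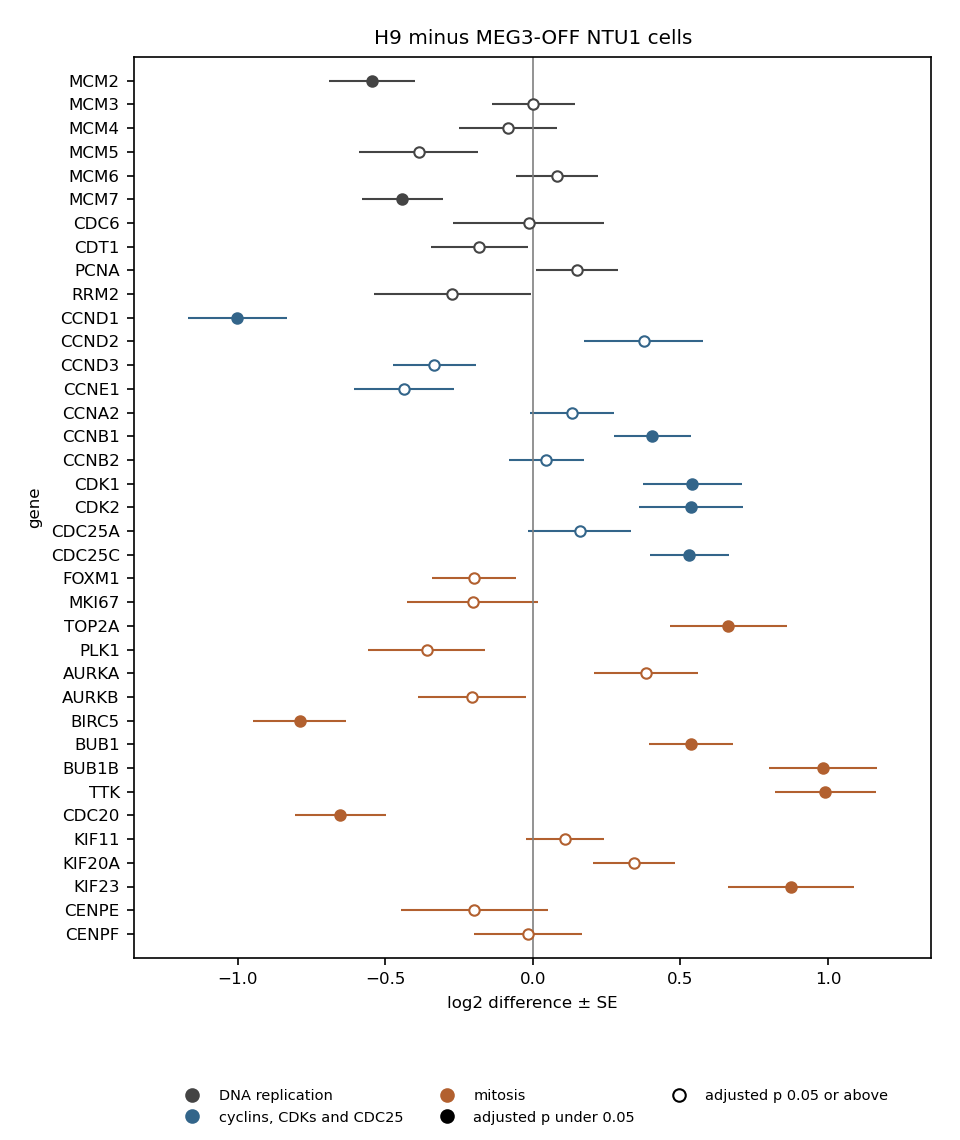
Log2 difference ± SE of each member between H9 (2 arrays) and MEG3-OFF NTU1 cells (5 arrays), coloured by role, with filled points for an adjusted p under 0.05. Of 14 filled points 9 lie to the right (higher in H9) and 5 to the left, the farthest being TTK and BUB1B on the right and CCND1 and BIRC5 on the left.

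Promoters of cell cycle genes carry short elements that their regulators bind: CCAAT boxes, read by the factor NF-Y, the cell cycle homology region (CHR, TTTGAA), read by the DREAM and MYB-MuvB complexes, and E2F sites. RefSeq promoter sequences (GRCh38.p14) were at hand for 28 of the 38 members, 10 having none here: MCM4, MCM5, CCND1, CCND2, CCNE2, CDK2, FOXM1, AURKA, BIRC5 and TTK. In the 250 bases before the transcription start, read on both strands and with a gene counted if any of its starts matched, TTTGAA was found in 10 of 28 members (35.7%), against 16.1% of 27305 genes. By role these were 0 of 8 replication genes, 3 of 8 cyclin, CDK and CDC25 genes and 7 of 12 mitotic genes. CCAAT was found in 23 of 28 (82.1%), against 37% of all genes, and TTTGGCGC or TTTCGCGC, E2F sites, in 4 of 28 (14.3%), against 1.2%, of which 0 of 12 mitotic genes. Of the members that were higher in H9, TTTGAA was found in 5 of 7 with a sequence, and of those that were lower in 1 of 3. These sets also differ in role, with MCM2 and MCM7 among the lower, so role and direction cannot be told apart. A match of letters is a description and shows no binding. The 150 bases before the start are shown for BUB1B and KIF23, higher in H9, and for CDC20 and MCM2, lower in H9, with TTTGAA and CCAAT in capitals on either strand (TTCAAA and ATTGG when read on the other). BUB1B lies at chr15:40160919-40161068 (plus strand), KIF23 at chr15:69414199-69414348 (plus), CDC20 at chr1:43358831-43358980 (plus) and MCM2 at chr3:127598261-127598410 (plus).
BUB1B: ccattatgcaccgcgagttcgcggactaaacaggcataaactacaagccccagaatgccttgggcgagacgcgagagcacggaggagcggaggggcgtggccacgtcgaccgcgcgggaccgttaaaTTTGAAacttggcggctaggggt
KIF23: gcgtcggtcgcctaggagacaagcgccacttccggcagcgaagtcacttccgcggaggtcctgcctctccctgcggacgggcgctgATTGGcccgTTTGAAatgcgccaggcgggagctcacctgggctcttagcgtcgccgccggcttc
CDC20: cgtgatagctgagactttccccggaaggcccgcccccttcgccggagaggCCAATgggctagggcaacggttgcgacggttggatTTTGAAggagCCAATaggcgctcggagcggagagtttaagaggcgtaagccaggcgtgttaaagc
MCM2: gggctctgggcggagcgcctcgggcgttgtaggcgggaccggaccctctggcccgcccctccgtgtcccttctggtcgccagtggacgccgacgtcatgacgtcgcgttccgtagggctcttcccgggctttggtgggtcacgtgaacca
KIF23 and CDC20 both hold a CCAAT match before a TTTGAA match, closer in KIF23, and CDC20 holds another CCAAT match just after it. BUB1B holds a TTTGAA match alone, and MCM2 neither. BUB1 and TOP2A, also higher in H9 and not shown, held no TTTGAA and 2 CCAAT matches each in the same 150 bases. In the 250 bases counted above, TOP2A held 2 TTTGAA matches and BUB1 still none. KIF23 was higher in H9 and CDC20 lower, and whether the elements bear on the direction was not tested.

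Of the 16 mitotic genes 5 were higher in H9, TTK and BUB1B by the largest differences. TTK (MPS1), the kinase that starts the checkpoint at unattached kinetochores, had levels of 10.36 and 10.73 in H9, against 9.50, 9.76, 9.63, 9.34 and 9.54 in MEG3-OFF replicates 5 to 9. Both H9 arrays lay clearly above all MEG3-OFF arrays. The difference was 0.99 ± 0.17, or 1.99-fold (limma, adjusted p = 0.00200).

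BUB1B was at 9.44 and 9.78 in H9, against the MEG3-OFF levels of 8.51 to 8.92 given above. There was no overlap, and the difference was 0.98 ± 0.18, or 1.98-fold (adjusted p = 0.00279, limma). BUB1, a checkpoint kinase that recruits BubR1 to kinetochores, had 11.27 and 11.49 in H9, against 10.76, 10.91, 10.91, 10.77 and 10.85 in MEG3-OFF replicates 5 to 9. The MEG3-OFF arrays lay close together and below both H9 arrays, with a difference of 0.54 ± 0.14, or 1.45-fold (adjusted p = 0.0128).

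KIF23 (MKLP1), a kinesin of the midbody in cytokinesis, was at 9.42 and 9.99 in H9, against 9.32, 8.71, 8.73, 8.65 and 8.75 in MEG3-OFF replicates 5 to 9. H9 replicate 1 was just above MEG3-OFF replicate 5, which stood apart from its group. The difference was 0.87 ± 0.21, or 1.83-fold (limma, adjusted p = 0.00945), and the other KIF23 probe, detected on 9 of 12 arrays, gave 1.23 ± 0.28. TOP2A had 11.59 and 11.99 in H9, against 10.93, 11.30, 11.30, 11.09 and 11.04 in MEG3-OFF replicates 5 to 9. Again there was no overlap, with a difference of 0.66 ± 0.20, or 1.58-fold (adjusted p = 0.0223).

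Of the mitotic genes, 2 were lower in H9. BIRC5 (survivin), the chromosomal passenger subunit that takes Aurora B to centromeres, had 10.27 and 9.85 in H9, against 10.61, 10.77, 10.83, 11.08 and 10.95 in MEG3-OFF replicates 5 to 9. Both H9 arrays lay below the group. The difference was -0.79 ± 0.16, or 1.73-fold (limma, adjusted p = 0.00392), and the other BIRC5 probe gave -0.45 ± 0.16.

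CDC20, the activator of the anaphase-promoting complex and target of the checkpoint, was at 12.997 and 12.75 in H9, against 13.31, 13.48, 13.53, 13.65 and 13.67 in MEG3-OFF replicates 5 to 9. The H9 arrays were again below all others. The difference was -0.65 ± 0.15, or 1.57-fold (adjusted p = 0.00813, limma). The call was lost under median scaling (-0.48, adjusted p = 0.0667). The remaining mitotic genes did not pass by the chosen probe: AURKA, the centrosomal Aurora kinase, had a difference of 0.38 ± 0.18 and KIF20A of 0.34 ± 0.14, without overlap in either, PLK1 of -0.36 ± 0.20, and FOXM1, MKI67, AURKB, KIF11, CENPE and CENPF of -0.21 to 0.11. The other AURKA probe, detected on all arrays, passed with 0.46 ± 0.15 (adjusted p = 0.0364 over all probes, limma).

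Of the 11 tested cyclins, CDKs and CDC25 genes 4 were higher in H9 and 1 lower. CDK1 had 11.01 and 11.03 in H9, against 10.47, 10.42, 10.34, 10.55 and 10.61 in MEG3-OFF replicates 5 to 9. The H9 arrays nearly coincided above the group, with a difference of 0.54 ± 0.17 (limma, adjusted p = 0.0263) and 0.67 ± 0.19 by the other CDK1 probe. CCNB1, cyclin B1, its partner, had 10.998 and 11.09 in H9, against 10.64, 10.58, 10.70, 10.48 and 10.78 in MEG3-OFF replicates 5 to 9. There was no overlap, and the difference was 0.40 ± 0.13 (limma, adjusted p = 0.0314), lost without MEG3-OFF replicate 6 (0.0573), MEG3-OFF replicate 8 (0.0593) or H9 replicate 1 (0.0710) and in a fit of 7 arrays (0.0576).

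CDC25C, the phosphatase that activates cyclin B with CDK1, had 9.00 and 8.89 in H9, against 8.34, 8.42, 8.37, 8.48 and 8.46 in MEG3-OFF replicates 5 to 9. The MEG3-OFF arrays were tightly grouped below. The difference was 0.53 ± 0.13 (limma, adjusted p = 0.0108), and the other 2 probes of CDC25C gave 0.73 ± 0.21 and 0.79 ± 0.18. CDK1 and CDC25C lost the call without H9 replicate 1 (0.0858 and 0.0638), as without H9 replicate 2.

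CDK2 was at 9.41 and 9.72 in H9, against 9.40, 9.08, 8.95, 8.92 and 8.78 in the same 5 MEG3-OFF arrays. The MEG3-ON levels (9.44 to 9.87) overlapped those of H9, and the lower H9 array barely exceeded MEG3-OFF replicate 5. The difference was 0.53 ± 0.18 (limma, adjusted p = 0.0342), lost in 8 of 16 other settings, among them without MEG3-OFF replicate 7 (0.0578), 8 (0.0605) or 9 (0.0656), and the mean of all probes gave 0.15 (0.493). The other CDK2 probe pointed the opposite way (-0.24 ± 0.20).

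CCND1, cyclin D1, which couples growth signals to CDK4 and CDK6, had 11.58 and 11.65 in H9, against 12.88, 12.57, 12.50, 12.72 and 12.39 in MEG3-OFF replicates 5 to 9. This was the largest difference of all members, with both H9 arrays far below the group. It was -1.001 ± 0.17, or 2.00-fold (limma, adjusted p = 0.00183), and kept its call in all 16 other settings.

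CCND2 (cyclin D2), CCND3 (cyclin D3) and CCNE1 did not pass, with differences of 0.38 ± 0.20, -0.33 ± 0.14 and -0.44 ± 0.17 and adjusted p of 0.165, 0.0818 and 0.0637 (limma). The arrays did not overlap for CCND3 and CCNE1. The other CCND2 probe, detected on all arrays, gave 0.81 ± 0.27 (adjusted p = 0.0355 over all probes), and the other CCNE1 probe, detected on 10 arrays, gave -0.67 ± 0.17 (adjusted p = 0.0128 over all probes), so both passed by the probe that was not chosen. CCNA2 (cyclin A2), CCNB2 (cyclin B2) and CDC25A, the CDC25 phosphatase of S phase entry, differed by 0.13, 0.05 and 0.16.

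Of the 10 replication genes, 2 passed and both were lower in H9. MCM2 had 9.69 and 9.48 in H9, against 10.29, 10.02, 10.12, 10.14 and 10.08 in MEG3-OFF replicates 5 to 9. The groups were well apart, by -0.54 ± 0.15, or 1.46-fold (limma, adjusted p = 0.0143). MCM7 had 13.23 and 13.13 in H9, against 13.63, 13.58, 13.71, 13.70 and 13.48 in MEG3-OFF replicates 5 to 9.

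Here too the H9 arrays lay below all MEG3-OFF arrays, by -0.44 ± 0.14, or 1.36-fold (limma, adjusted p = 0.0271). MEG3-ON replicate 1, at 13.22, was as low as H9 replicate 1. The call was lost without H9 replicate 1, under median scaling (-0.27, limma, adjusted p = 0.161) and under a median shift (0.0998). The other MCM7 probes gave -0.37 ± 0.18 and -0.64 ± 0.25. MCM3, MCM4 and MCM6, subunits of the same helicase, differed by 0.00, -0.08 and 0.08, so within 1 complex only MCM2 and MCM7 passed, and MCM5 had -0.39 ± 0.20 with overlapping arrays. The loading factors CDC6 and CDT1, PCNA and RRM2 ranged between -0.27 and 0.15 and none passed.

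Averaged within each array, the 9 members that were higher had levels of 10.28 and 10.52 in H9, against 9.65 to 9.81 in MEG3-OFF. The 5 that were lower had 11.55 and 11.37 in H9, against 12.09 to 12.26 in MEG3-OFF. These means only restate the choice of the genes for the arrays that chose them. The EB did not enter the fit, and the MEG3-ON arrays entered its filter and spread but not the difference. There the 9 genes were at 9.56 in the EB and at 10.03, 9.70, 9.71 and 10.001 in MEG3-ON replicates 1 to 4. The 5 genes were at 12.62 in the EB and at 11.83, 12.07, 12.18 and 12.01 in MEG3-ON replicates 1 to 4. MEG3-ON replicates 1 and 4 thus lay between H9 and the others for the 9 genes, and the EB lay on the far side of NTU1 from H9 for both groups of genes.

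Second probes gave a partial check of the values in the same RNA: 16 members had more than 1 probe, and 15 of 18 further probes had the sign of the chosen probe in H9 against MEG3-OFF, but 10 of 18 in MEG3-OFF against MEG3-ON. Of the 8 further probes of members called in H9, 7 had the same sign (CDK2 was the exception) and 4 passed the threshold on their own.

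The third comparison set the EB, differentiated and on 1 array, beside the MEG3-ON hESC. No test was possible, and each difference is the EB level minus the MEG3-ON mean (n = 4). Only 1 of 37 members differed by more than 2-fold (2.7%), against 16.8% of 11763 genes (9.09% higher and 7.75% lower in the EB), and 22 of 37 lay outside the range of the MEG3-ON arrays, against 72.6% of all genes. The pluripotency gene POU5F1 was at 7.74 in the EB, against 12.27 to 12.43 in MEG3-ON. More fibroblast genes were detected in the EB (7 of 8, against 4 of 8). Of the 7 compared, 3 were past 2-fold higher and 1 was lower, by -0.58. Higher by their mean were neural genes (mean of 6 genes 9.04 in the EB, against 7.06 to 7.37 in MEG3-ON) and endoderm genes (mean of 6, 7.17 against 5.20 to 5.81). Mesoderm and heart genes were also higher (mean of 5, 7.67 against 5.74 to 6.85), with only 2 of the 5 detected in the EB. None of 5 blood and endothelium genes was detected in the EB or in MEG3-ON. The part of this mixture of cells in the values below was not tested.

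**Figure D5:**
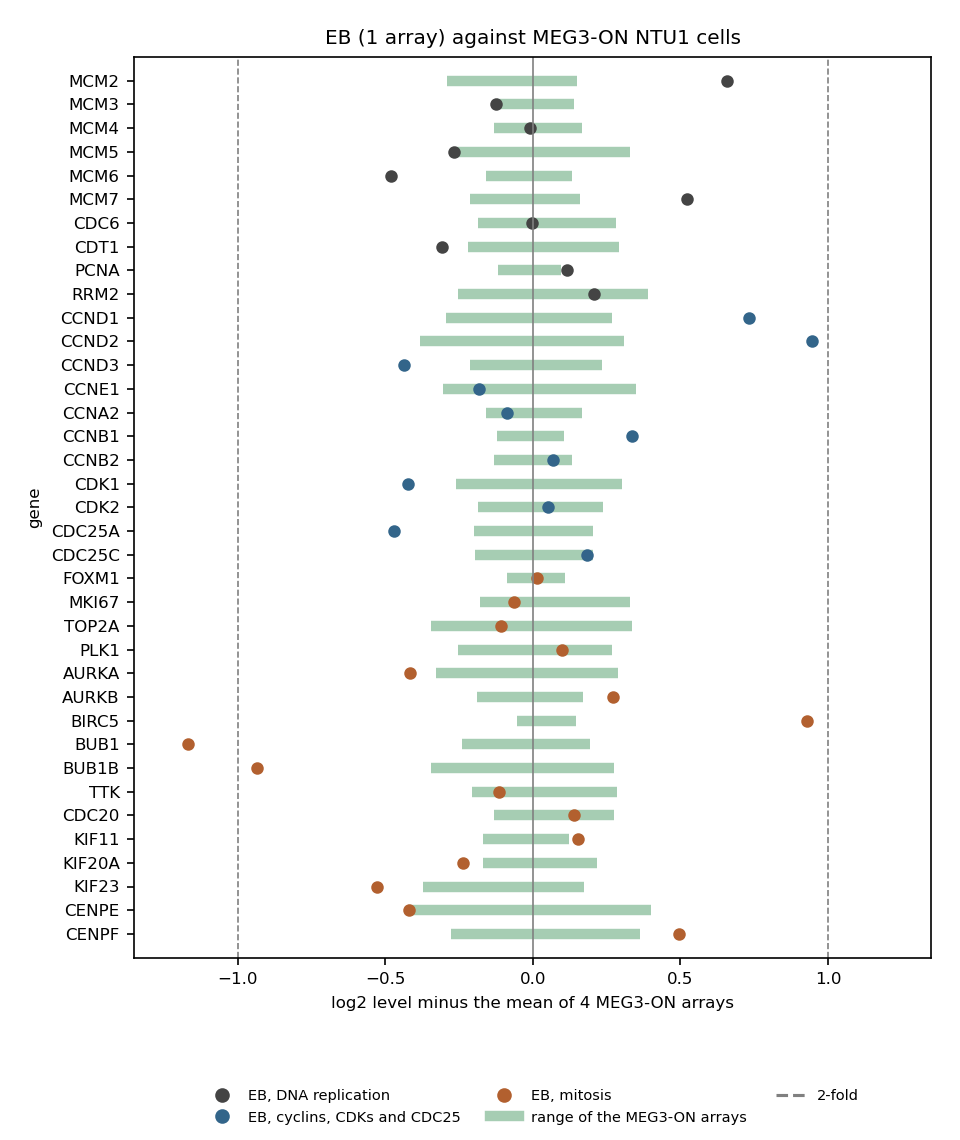
Log2 level of each of 37 members in the EB (points, coloured by role) minus the mean of the 4 MEG3-ON arrays, with green bars for the range of these arrays and dashed lines at 2-fold. BUB1 lies past 2-fold, and BUB1B, BIRC5, CCND1, CCND2 and MCM2 are the other points farthest from the bars.

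BUB1 was at 9.69 in the EB, against 11.05, 10.62, 10.86 and 10.91 in MEG3-ON replicates 1 to 4. It was 2.25-fold lower, a log2 difference of -1.17, and far below the MEG3-ON range. BUB1B, its checkpoint partner, was at 8.01 in the EB, against 9.21, 8.83, 8.60 and 9.13 in MEG3-ON replicates 1 to 4, a log2 difference of -0.93. It too lay below every MEG3-ON array. TTK, another checkpoint gene listed, stayed in the range, with 9.41 in the EB and 9.32 to 9.81 in MEG3-ON.

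BIRC5 was higher in the EB, at 11.80, against 10.82, 10.82, 11.02 and 10.82 in MEG3-ON replicates 1 to 4, a log2 difference of 0.93. The other BIRC5 probe gave 0.38. The MEG3-ON arrays were close to each other and all below the EB. The D cyclins of G1 went in both directions. CCND2 was at 12.22 in the EB, against 11.25, 11.36, 10.89 and 11.58 in MEG3-ON replicates 1 to 4, or 1.93-fold higher. CCND1 was at 13.06 in the EB, against 12.04, 12.60, 12.37 and 12.32 in MEG3-ON replicates 1 to 4, or 1.66-fold higher. Both were above every MEG3-ON array, whereas CCND3 was below them all (9.99 in the EB, against 10.21 to 10.66).

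MCM2 was at 10.79 in the EB, against 9.84, 10.19, 10.28 and 10.20 in MEG3-ON replicates 1 to 4, or 1.58-fold higher. MCM7 was higher as well (0.52) and MCM6 lower (-0.48), and MCM3 (-0.13) and MCM5 (-0.27) also lay outside the MEG3-ON range, unlike MCM4 (-0.01). The other MCM3 probe, detected on all arrays, gave -0.85. Over the 10 replication genes the median was -0.01, over the 11 cyclins, CDKs and CDC25 genes 0.05 and over the 16 mitotic genes -0.09, beside 0.04 for all genes. The remaining mitotic genes with the EB outside the MEG3-ON range were KIF23 (-0.53), AURKA (-0.42), KIF20A (-0.24), KIF11 (0.15), AURKB (0.27) and CENPF (0.49). Of the other roles, CDT1 (-0.31), PCNA (0.12), CCNB1 (0.34), CDK1 (-0.42) and CDC25A (-0.47) also lay outside it. The other CDC25A probe, detected on all arrays, gave 0.39.

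Beyond the 38 members, 124 further genes of replication, mitosis, CDK control, CDK inhibition and the RB, E2F and DREAM group were listed, of which 122 had a probe. In MEG3-OFF against MEG3-ON none of 110 tested passed limma's threshold, against 3.58% of all genes. An unadjusted p under 0.05 was found for 20 of the 110, against 22.3% of all genes. By the methods' t-test with its 1.5-fold limit 427 of 10775 genes passed, and of the 110 further genes 2 (0 after adjustment). Those 2, named after their values were seen, were ZWINT, a kinetochore protein, at -0.64 ± 0.17 (adjusted p = 0.0611, limma), and CDKN1A. CDKN1A, the CDK inhibitor p21, averaged 9.42 ± 0.48 in MEG3-OFF (SD, n = 5) and 8.67 ± 0.46 in MEG3-ON (n = 4), a difference of 0.75 ± 0.25 (limma, adjusted p = 0.109). The other tested inhibitors, CDKN1B (p27), CDKN1C (p57), CDKN2D (p19) and CDKN3, differed by 0.00 to 0.45, and CDKN2A and CDKN2B were not detected on any array. Among the 16 tested genes of the RB, E2F and DREAM group the median was -0.02.

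In H9 against MEG3-OFF, 48 of 115 further genes passed (41.7%, against 31.4% of all genes), 33 higher (13.2% of all genes were) and 15 lower (18.2%). Of 37 further mitotic genes 15 were higher and 1 lower, with a median of 0.29. The largest differences were those of ANLN, the cleavage furrow protein anillin (1.13 ± 0.22), ZWINT (0.97 ± 0.21) and NDC80 (0.94 ± 0.20), an outer kinetochore subunit, and the 1 lower was INCENP (-0.77 ± 0.15), the scaffold that binds BIRC5 and AURKB. Replication genes divided, 13 of 39 higher and 6 lower. ORC3, an origin recognition subunit (1.01 ± 0.22), and RRM1, the large subunit of ribonucleotide reductase (0.99 ± 0.18), were the highest of them, and POLE, a catalytic DNA polymerase subunit (-0.86 ± 0.19), the lowest.

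Of the 16 further CDK regulators 3 were higher and 5 lower, PKMYT1, an inhibitory kinase of CDK1, being the lowest (-0.95 ± 0.22). In the RB, E2F and DREAM group 1 of 18 was higher, LIN9, a MuvB subunit (0.93 ± 0.22), and 3 lower: MYCN, a growth-promoting transcription factor (-0.93 ± 0.17), E2F2 (-0.82 ± 0.22) and RBBP4 (-0.42 ± 0.13). Of 5 CDK inhibitors, CDKN3, a phosphatase that acts on CDK2, passed at 0.61 ± 0.17, and CDKN1A had -0.85 ± 0.31 (adjusted p = 0.0508, limma).

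In the EB, 6 of 117 further genes differed by more than 2-fold from MEG3-ON (5.13%, against 16.8% of all genes). Higher were E2F2 (4.05-fold), FZR1, the G1 activator of the anaphase-promoting complex (2.73-fold, detected on 4 of 12 arrays), TYMS, thymidylate synthase (2.40-fold), and UHRF1, which helps copy DNA methylation (2.19-fold). Lower were CDK7, the CDK-activating kinase (2.53-fold), and CHEK1, a checkpoint kinase of replication stress (2.06-fold).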

How the data were processed

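Total RNA of 12 samples was measured on Illumina HumanHT-12 version 4 arrays. The authors deposited a table of bead signals, an intensity per probe and array without normalization, with detection p-values, and a second table with the intensity after quantile normalization in Partek Genomics Suite (version not stated), put back on a linear scale. The 2 tables ranked probes alike (rank correlation at least 0.999966). Of 47230 probes, 30113 had 1 gene symbol, 8 several and 17109 none, and 30074 were matched by Entrez ID to RefSeq (GRCh38.p14). Background was modelled from the detection p-values with neqc (offset 16) in limma 3.58.1 (R 4.3.3), which then applied quantile normalization and log2, with the brightest probe per gene. No 2 arrays held identical values. All lay on 1 chip, and the number of arrays limits precision.

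MEG3-OFF and MEG3-ON were compared by limma (lmFit, eBayes) over genes detected on at least 4 of 9 NTU1 arrays, H9 and MEG3-OFF over genes detected on at least 2 of 11 hESC arrays, two-sided, with Benjamini-Hochberg adjustment over all genes. For the EB, genes detected in it or on at least 2 MEG3-ON arrays were compared with no test. The fitting code was tested on simulated data. Every array is given for members that passed and for the 6 largest differences per comparison, and of other genes at most 5 per direction. Members and lists were chosen with earlier results of these data known. Alternatives changed the background correction, normalization, probe choice, filter, fit and arrays. Some listed genes were not analysed here. Figures were drawn in Python 3.11.15 with matplotlib 3.10.9.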

Additional observations from a re-analysis of the deposited data

Results flagged for a closer look

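Of 76 groups of 4 or 5 arrays, 1 gene and group at a time, 3 held an array that stood apart from the rest by Dixon's test. Chance gives about 1 in 20, so this count is no higher than chance would give. KIF23 was at 9.32 in MEG3-OFF replicate 5, with the other MEG3-OFF arrays between 8.65 and 8.75. BUB1B was at 8.92 in the same array, with the others between 8.51 and 8.62. BIRC5 was at 11.02 in MEG3-ON replicate 3, with the others at 10.82.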

How the results depend on the processing

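No paired analysis was possible because the MEG3-OFF and MEG3-ON NTU1 samples have no replicate number in common and nothing links those of H9 to NTU1. Every difference whose arrays are given kept its direction under all alternatives tried, while up to 5 of the 31 other members in MEG3-OFF against MEG3-ON and up to 4 of 23 in H9 changed sign under a single alternative. In MEG3-OFF against MEG3-ON, the 1 member called became 3 without background correction, 3 in the authors' normalized values (each time 1 higher, CCNE1, and 2 lower, CDK2 and KIF20A), 3 with a trended and robust fit, 2 over genes detected on all 9 arrays, 2 in the fit of 11 arrays, 0 without a filter on dim probes and 0 with the methods' t-test after adjustment. Under median scaling the 1 member called was CCNE1, higher in MEG3-OFF, and with the mean of all or of detected probes it was KIF20A, lower (adjusted p = 0.0388 and 0.0461), with CDK2 at -0.38 (0.116 and 0.117). Leaving out 1 array at a time gave 0 to 3 members. In H9 against MEG3-OFF the 14 members became 11 to 16 under other processing and 1 to 14 with 1 array left out, the 1 being without H9 replicate 2, where the lone H9 array was taken to vary like the other groups. In the EB the count was 1 under other processing and 1 to 2 without 1 MEG3-ON array (without replicate 3, BUB1B passed 2-fold, and without replicate 4, CCND2). A median shift chosen after seeing the data gave 1, 14 and 1. With 5 against 4 and 2 against 5 arrays, small differences could not be told from the spread, and CDC6 and MKI67 lay near background.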
